A study of Homo sapiens with 15 samples.

Results

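The 19p12 and 19q13.4 clusters are runs of neighbouring zinc-finger (ZNF) genes of the KRAB type on chromosome 19. The 39 genes described here, 20 of 19p12 and 19 of 19q13.4, were taken by name from a table of 55773 genes. All 39 were found in it, and GENCODE 29 places all 39 on chromosome 19. In the longest annotated coding sequence of each gene, C2H2 zinc fingers were found in 38 of the 39 members, all except ZNF738. Whether each gene also encodes a KRAB domain was not tested. The 2 clusters were compared with each other and with the chromosome 19 genes that are not zinc-finger genes, which were mostly higher in the overexpressing cells.

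KRAB zinc-finger proteins are DNA-binding repressors. Their arrays of C2H2 fingers recognise DNA, very often in transposable elements, and their KRAB domain recruits TRIM28 (KAP1). TRIM28 brings in the histone H3 lysine 9 methyltransferase SETDB1, heterochromatin protein 1 and the NuRD deacetylase complex. The clusters grew by tandem duplication, at 19p12 above all in the primate lineage, so that neighbours resemble each other in sequence, and the clusters themselves carry heterochromatin marks and TRIM28 in many human cells. ZNF91 of 19p12, for example, is known to repress SVA retrotransposons.

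The study measured poly(A) RNA from HEK293 cells, an established human embryonic kidney line, in 15 libraries, 3 in each of 5 groups. The control, ZC3H7A and ZC3H7B groups were Flp-In T-REx 293 cells with an inducible transgene, which was a Flag/HA control in the first group, Flag/HA-ZC3H7A in the second and Flag/HA-ZC3H7B in the third. All 3 groups are labelled as treated with doxycycline, and the protocol gives 1 µg/mL for 24 h. The Parental cells carried a control shRNA, and the double depletion (DD) cells carried a ZC3H7A knockout with an shRNA against ZC3H7B. Both were selected with 5 µg/mL puromycin, were released from it 2 passages before collection, and had libraries made with another protocol. ZC3H7A and ZC3H7B are CCCH zinc-finger RNA-binding proteins, and the series addresses their codon-dependent effect on mRNA translation and stability. Each group was a separate cell line or pool, the sources used here do not state how many clones stand behind each, and a transgene or depletion cannot be told apart from a difference between lines. Whether the Parental and DD libraries came from separate cultures is also not stated. The p-values therefore measure the spread between these libraries, which may be technical.

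The 9 overexpression libraries held 45.5 to 57.6 M reads each and the 6 depletion libraries 12.2 to 15.5 M. Values are normalized read counts, that is reads divided by a factor per library. The targeted genes were checked in every library. ZC3H7A stood at 3179.5, 3374 and 3223 in control and at 10545, 10131 and 12898 in ZC3H7A libraries. ZC3H7B stood at 5951, 5818 and 6044 in control and 28082, 26712 and 26632 in ZC3H7B libraries. The other gene of the pair differed from control too. ZC3H7A was lower in ZC3H7B libraries, at 1935, 2049 and 2113, and ZC3H7B was higher in ZC3H7A libraries, at 8252, 8288 and 7390. The latter difference depended on how the libraries were scaled, as given below. In DD, ZC3H7B stood at 999.8, 1168 and 1083 against 5948, 6484 and 6958 in Parental, whereas ZC3H7A RNA, at 1639.9, 1561 and 1771 against 1585, 1528 and 1684, was not lower (log2 fold change 0.05, limma adjusted p = 0.666). The sources used here do not state where the knockout lies in the gene. The RNA level therefore does not check it, and DD is used here as the name of the libraries so labelled. Of 6 genes known in HEK293 cells, INA, NEFL, CDH2, VIM and PAX2 were expressed in every group, and NEFM was low at 31.8 ± 5.25 in control and 1.64 ± 2.85 in Parental (SD, n = 3). Of 11 markers of leukocytes, endothelium, fibroblasts and hepatocytes 10 were in the table, and 8 or 9 of them had means under 10 in each group, among them the defining PTPRC, CD3E, CDH5, LUM and ALB. Their summed level was 154 to 181 in control, 209.6 to 236 in ZC3H7A, 238 to 292 in ZC3H7B, 179.8 to 259 in Parental and 211 to 233 in DD libraries, most of it from the collagen gene COL1A1. The part of these genes in the results was not tested. ZC3H7A replicate 3 stood apart from its group, with a chi-square per gene of 17.9 and 23.0 against replicates 1 and 2, which differed from each other by 4.00. Parental replicate 3 did so too, at 16.5 and 11.1 against 3.36, and no pair of libraries agreed within sampling noise. Results that rest on these libraries are given with and without them.

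The following sequences show how the promoters of the clusters differ in CG content and how rich in A and T the coding repeats of the fingers are. The promoter windows are from RefSeq on GRCh38.p14 and run from 250 bases before to 50 bases after the annotated start, in lower case with each CG dinucleotide in capitals. ZNF43 (chr19:21836133-21836432, minus strand), ZNF85 (chr19:20923001-20923300, plus strand) and ZNF726 (chr19:23914636-23914935, plus strand) of 19p12 and ZNF320 (chr19:52897645-52897944, minus strand) and ZNF677 (chr19:53254774-53255073, minus strand) of 19q13.4 are shown because these members had some of the largest differences between groups.
ZNF43 promoter: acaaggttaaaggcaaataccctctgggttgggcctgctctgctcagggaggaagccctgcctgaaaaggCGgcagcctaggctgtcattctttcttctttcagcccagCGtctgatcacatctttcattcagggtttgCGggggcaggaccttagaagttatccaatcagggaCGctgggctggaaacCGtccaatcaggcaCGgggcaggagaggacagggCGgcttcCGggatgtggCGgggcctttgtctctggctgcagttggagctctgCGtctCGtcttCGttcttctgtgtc
ZNF85 promoter: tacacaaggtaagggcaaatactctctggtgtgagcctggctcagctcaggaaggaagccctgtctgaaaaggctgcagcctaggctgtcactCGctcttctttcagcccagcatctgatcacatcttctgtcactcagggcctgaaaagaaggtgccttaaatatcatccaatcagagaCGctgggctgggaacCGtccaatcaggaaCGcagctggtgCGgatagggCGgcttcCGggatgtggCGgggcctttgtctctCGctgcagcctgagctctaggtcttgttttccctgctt
ZNF726 promoter: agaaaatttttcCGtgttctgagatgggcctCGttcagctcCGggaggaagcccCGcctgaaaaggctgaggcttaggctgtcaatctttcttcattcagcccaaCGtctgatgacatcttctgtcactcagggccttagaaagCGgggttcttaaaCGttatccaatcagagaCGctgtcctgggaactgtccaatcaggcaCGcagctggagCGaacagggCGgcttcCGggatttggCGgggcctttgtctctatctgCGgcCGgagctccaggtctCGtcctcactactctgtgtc
ZNF320 promoter: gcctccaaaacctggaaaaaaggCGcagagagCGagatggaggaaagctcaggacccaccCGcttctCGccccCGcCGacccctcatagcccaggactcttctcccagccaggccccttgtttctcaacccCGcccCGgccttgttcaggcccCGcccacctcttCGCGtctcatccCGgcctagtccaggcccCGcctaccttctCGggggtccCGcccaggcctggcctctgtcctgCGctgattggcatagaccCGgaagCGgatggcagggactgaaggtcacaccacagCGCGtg
ZNF677 promoter: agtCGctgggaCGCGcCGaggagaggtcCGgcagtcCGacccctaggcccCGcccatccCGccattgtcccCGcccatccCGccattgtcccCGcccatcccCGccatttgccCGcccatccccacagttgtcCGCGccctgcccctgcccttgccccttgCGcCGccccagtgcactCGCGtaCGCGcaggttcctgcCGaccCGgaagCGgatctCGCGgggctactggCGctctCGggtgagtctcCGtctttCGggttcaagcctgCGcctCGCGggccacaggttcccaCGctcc
A finger repeat of 84 bases, from GENCODE 29 coding sequence, follows for 3 members, with each A or T at the last position of a codon in capitals.
ZNF91 finger: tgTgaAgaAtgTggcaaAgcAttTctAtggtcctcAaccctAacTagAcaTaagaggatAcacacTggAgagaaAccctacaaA
ZNF43 finger: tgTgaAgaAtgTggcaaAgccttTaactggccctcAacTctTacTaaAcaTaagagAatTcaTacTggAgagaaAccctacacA
ZNF677 finger: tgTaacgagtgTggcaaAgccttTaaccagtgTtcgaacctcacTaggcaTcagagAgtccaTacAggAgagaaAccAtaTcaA
In these repeats 18, 19 and 15 of 28 codons ended in A or T.

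A RefSeq promoter window was found for 33 of the 39 members, and for members with several starts the first listed was used. In 19p12 the 17 windows held 9 to 16 CG dinucleotides, with a median of 10. In 19q13.4 the 16 windows held 17 to 34, with a median of 26.5, so the clusters did not overlap. All 35116 promoters of the table had a median of 14. The letters CG, which read the same on both strands, were present 10 or more times in 29 of the 33 member windows (87.9%) and in 56.4% of all promoters. These counts describe the windows and say nothing of binding or methylation. The coding sequences were more alike. Codons with A or T at the last position made up a median of 66.7% of the coding sequence in 19p12 and 64.0% in 19q13.4. The median was 57.8% in the other chromosome 19 zinc-finger genes, 52.1% in zinc-finger genes of other chromosomes, 39.4% over 19055 coding genes and 23.3% in the other chromosome 19 genes. The number of fingers per protein had a median of 13 in 19p12, up to 36 in ZNF208 and 31 in ZNF91, and of 14 in 19q13.4, up to 26 in ZNF845. Because the genes are copies, reads can be shared. Stretches of 75 bases found in another gene made up 73.0% of the exon sequence of ZNF320, 53.2% of ZNF468 and 31.0% of ZNF98, against 16.7% or less in every other member, so the values of those 3 genes are uncertain. The read length is not stated in the sources used here. With stretches of 50 bases the share was 22.6% in ZNF808 and 20.9% in ZNF701, so their values are less certain too. It was 13.8% or less in the remaining members.

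**Figure D1:**
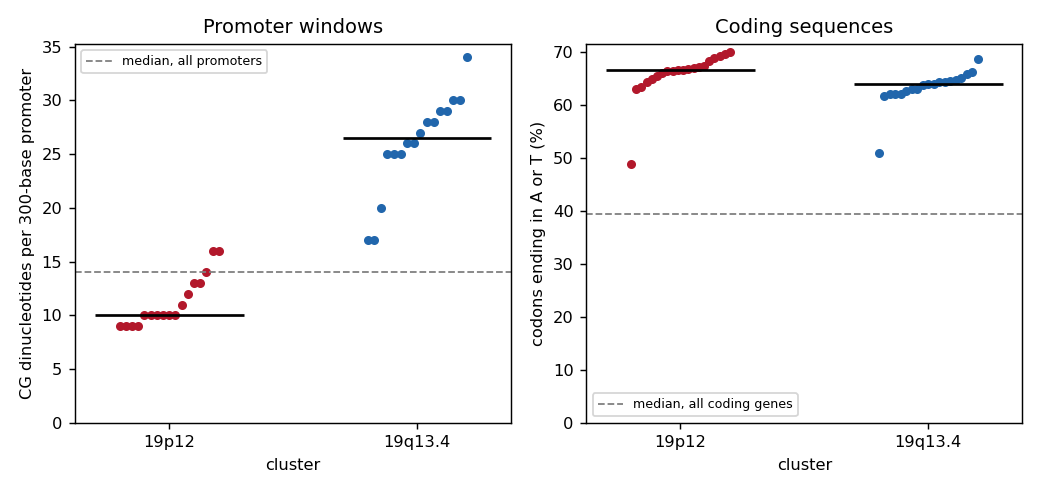
CG dinucleotides in the 300-base promoter window (left) and percent of codons ending in A or T (right) for the members of each cluster, with 1 point per gene, a black line at the cluster median and a dashed line at the median of all promoters or all coding genes. The 19p12 windows lie at 9 to 16 and the 19q13.4 windows at 17 to 34, while the codon shares of the clusters overlap above the dashed line.

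The level of the members was first compared per kilobase of exon sequence. In control cells ZNF331 of 19q13.4 was the highest at 217 ± 6.20 normalized counts per kilobase (SD, n = 3). ZNF714 of 19p12 followed at 142 ± 2.87, then ZNF83 at 118 ± 1.16 and ZNF761 at 117 ± 5.16, which did not differ beyond their spread. ZNF714 and ZNF331 changed places in the other line, with ZNF714 at 150.3 ± 24.9 per kilobase and ZNF331 at 84.6 ± 10.8 in Parental cells. Levels of the Parental and DD libraries are set beside those of the other experiment as description only, since their libraries were made in another way. At the low end, ZNF738, ZNF208, ZNF676, ZNF98 and ZNF730 of 19p12 and ZNF600, ZNF415, ZNF347 and ZNF665 of 19q13.4 stayed under the minimum of 10 normalized counts in 3 libraries in both experiments and were not tested. The clusters therefore each held both well expressed and nearly silent genes in these cells.

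In cells overexpressing ZC3H7A, the 19p12 genes were mostly lower than in control. Summed over the 20 members, 19p12 stood at 5176, 4884 and 5163 normalized counts in control and at 2640, 2492 and 3599 in ZC3H7A libraries. The groups did not overlap, and replicate 3 was the ZC3H7A library nearest to control. Of 14 members that passed the filter on low values, 12 were lower (limma adjusted p under 0.05) and 0 higher, with a median log2 fold change of -1.04. At an unadjusted p under 0.05 limma also had 0 higher, as did edgeR and DESeq2 at an adjusted p under 0.05, whereas 1 was higher with no filter on low values and 2 with the trend in the A+T share of transcripts removed. Over all 17673 genes tested, 41.2% were lower and 34.7% higher, with a median of -0.07. Leaving out ZC3H7A replicate 3 gave 13 lower members and a median of -1.20. In bulk RNA, fewer cells of a type and less RNA per cell cannot be told apart.

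The 19q13.4 genes differed less and in both directions. Their 19 members summed to 6069, 6033 and 6226 in control and to 5238, 5107 and 6440 in ZC3H7A libraries, so that replicate 3 lay above all controls and replicates 1 and 2 below. Of 15 members that passed the filter, 7 were lower and 3 higher, and the median log2 fold change was -0.19. Without ZC3H7A replicate 3, 8 were lower and 2 higher and the median was -0.36, and without ZC3H7A replicate 2 the median was -0.05. By library the 19p12 median was -1.16, -1.24 and -0.75 relative to control and the 19q13.4 median -0.25, -0.39 and 0.10, so 19p12 lay below 19q13.4 in each of the 3 libraries. The difference between the cluster medians was -0.85.

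Neither cluster shared the rise of the rest of chromosome 19. Of 792 tested chromosome 19 genes that are not zinc-finger genes, 612 (77.3%) were higher and 78 lower in ZC3H7A cells, with a median log2 fold change of 0.65. The 20 tested genes on either side of each cluster included 13 higher and 3 lower before 19p12, 15 and 5 after it, 16 and 1 before 19q13.4, and 15 and 2 after it, with medians of 0.44, 0.58, 0.63 and 0.54. The 187 other zinc-finger genes of chromosome 19 were in between, with 79 higher, 55 lower and a median of 0.11, and the 265 zinc-finger genes of other chromosomes had 87 higher, 131 lower and a median of -0.20. Base composition moved with these values. When the trend of each library with the A+T share of transcripts was removed, the median was -0.52 in 19p12, 0.19 in 19q13.4 and 0.18 in the other chromosome 19 genes, so that 19q13.4 turned from negative to positive, with 7 members higher and 3 lower. The difference between the clusters was then -0.71. When each library was centred on the chromosome 19 genes that are not zinc-finger genes, which moved the median of all genes to -0.74, the medians were -1.72 and -0.87.

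**Figure D2:**
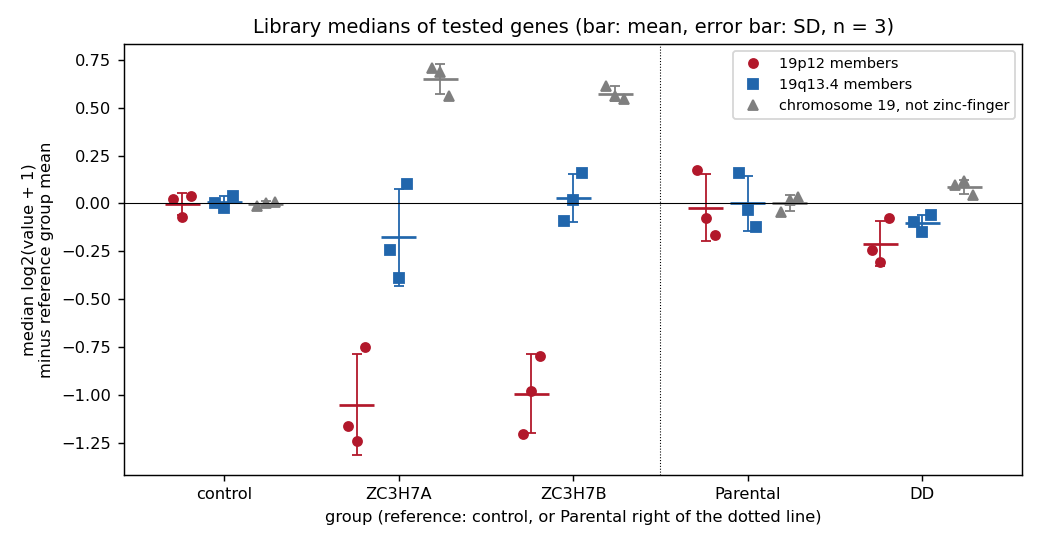
Median log2(value + 1) of the tested genes of each set in each library, minus the mean of the reference group (control left of the dotted line, Parental right of it), with points for libraries, a bar for the mean and an error bar for the SD (n = 3). The 19p12 members (circles) lie at -0.75 to -1.24 in the ZC3H7A and ZC3H7B libraries, the 19q13.4 members (squares) at -0.39 to 0.16 and the other chromosome 19 genes (triangles) at 0.54 to 0.71.

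Among the tested 19p12 members, ZNF681 had the largest difference with ZC3H7A. It stood at 275, 244 and 269 normalized counts in control and at 71.8, 62.1 and 115 with ZC3H7A. Every ZC3H7A library was below every control library, and the log2 fold change was -1.70 (SE 0.205, limma adjusted p = 1.03e-05). ZNF429 stood at 167, 173 and 177 in control and 75.05, 63.7 and 79.4 with ZC3H7A, again without overlap (log2 change -1.24 with an SE of 0.0908, limma adjusted p = 1.54e-07). ZNF91, the repressor of SVA elements, was at 531, 479 and 490.3 in control and 194, 183 and 275 with ZC3H7A (log2 change -1.22 with an SE of 0.136, limma adjusted p = 5.06e-06). The highest ZC3H7A library of ZNF91, replicate 3, was still far below the lowest control. Of the other 9 lower members, ZNF675, ZNF100, ZNF85, ZNF708, ZNF493 and ZNF430 had log2 fold changes from -1.21 to -1.01, and ZNF431, ZNF714 and ZNF726 from -0.85 to -0.28. ZNF43 and ZNF254 did not pass the test. Their log2 differences were -0.17 (limma adjusted p = 0.44) and -0.36 (limma adjusted p = 0.0846), and replicate 3 of ZC3H7A lay above all controls for both.

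In 19q13.4, ZNF677 and ZNF320 were higher with ZC3H7A than in control by far more than any other member. For both genes control was the lowest of the 5 groups. ZNF677 stood at 32.8, 32.6 and 38.6 in control and at 556, 500.1 and 597 in ZC3H7A libraries, a log2 fold change of 3.95 (SE 0.0925, limma adjusted p = 4.89e-11). ZNF320 stood at 64.6, 58.96 and 62.4 in control and at 473, 493 and 568 with ZC3H7A (log2 change 3.02 with an SE of 0.0874, limma adjusted p = 2.3e-10), with the limit that most of its exon sequence is shared with another gene. For both genes the 3 control libraries lay far below all 3 ZC3H7A libraries. ZNF701 was the remaining higher member, at 93.7, 79.6 and 93.6 in control and 109.7, 97.98 and 132 with ZC3H7A, with a log2 fold change of 0.34 (SE 0.114, limma adjusted p = 0.0175) that became -0.34 when libraries were centred on chromosome 19 genes. Its call ended without ZC3H7A replicate 3, at a log2 fold change of 0.22, and without control replicate 2, at 0.26.

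ZNF83 had the largest fall in 19q13.4, from 961, 945 and 944 in control to 350.2, 342 and 529 with ZC3H7A (log2 change -1.25 with an SE of 0.133, limma adjusted p = 3.43e-06). It resembled the 19p12 members in size and in the absence of overlap. ZNF28 was at 398, 402 and 390.3 in control and 255, 223 and 333 with ZC3H7A (log2 change -0.57 with an SE of 0.127, limma adjusted p = 0.00133), and ZNF813 at 198, 199 and 202 in control and 138, 116 and 156 with ZC3H7A (log2 change -0.56 with an SE of 0.103, limma adjusted p = 0.000348). Both lost their call when the trend with A+T share was removed, at log2 fold changes of -0.15 and -0.17. ZNF331, the most abundant member per kilobase in control, ZNF761, ZNF765 and ZNF160 had log2 fold changes from -0.45 to -0.27. The 5 members that did not pass the test, ZNF845, ZNF611, ZNF468, ZNF816 and ZNF808, lay between -0.19 and 0.21.

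**Figure D3:**
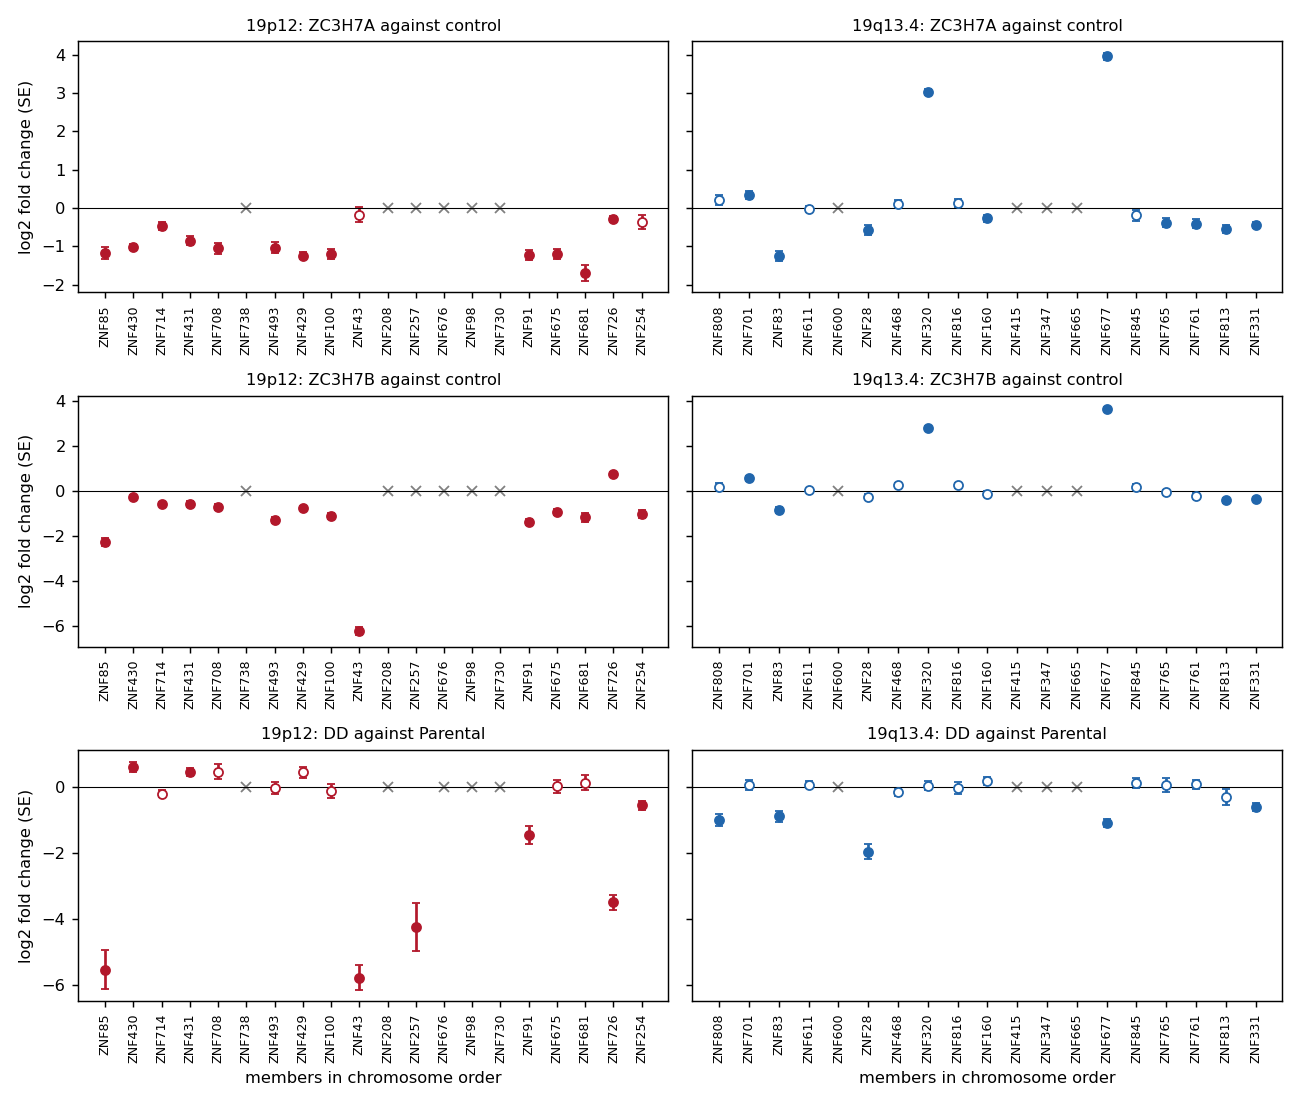
Log2 fold change with its SE (vertical axis) for each member in chromosome order (horizontal axis), for 19p12 (left) and 19q13.4 (right) in 3 comparisons, with filled points for called members, open points for members not called and grey crosses at 0 for members not tested. In the upper and middle rows nearly all 19p12 points lie below 0, while ZNF320 and ZNF677 stand alone at 2.77 to 3.95 in 19q13.4.

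Overexpression of ZC3H7B, the paralogue of ZC3H7A, went with a lower 19p12 cluster too. The summed 19p12 level was 2577, 2753 and 3091 in ZC3H7B libraries, below all 3 control values given above. Of the 14 tested members 13 were lower and 1 higher (limma adjusted p under 0.05), with a median log2 fold change of -0.99, against 37.6% lower and 32% higher of all genes and a median of -0.06. Library medians were -1.20, -0.98 and -0.79. In 19q13.4, 3 of 15 tested members were lower and 3 higher, and the median was 0.01, with library medians of -0.09, 0.02 and 0.16. Higher 19q13.4 members numbered 5 with TMM or median-of-ratios scaling, with edgeR, with DESeq2 and without control replicate 3, and lower ones 8 with chromosome 19 centring and 5 without ZC3H7B replicate 3. The 19q13.4 sum of 5524, 5805 and 6558 overlapped that of control. The comparisons with ZC3H7A and ZC3H7B share the same 3 control libraries.

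The rest of chromosome 19 again went the other way from 19p12. Among the 792 genes that are not zinc-finger genes, 592 (74.7%) were higher with ZC3H7B and 51 lower, with a median of 0.57. The 20 genes before 19p12 held 10 higher and 2 lower, those after it 12 and 4, those before 19q13.4 14 and 1, and those after it 12 and 5. Their medians were 0.14, 0.23, 0.58 and 0.33. The 187 other chromosome 19 zinc-finger genes had a median of 0.13. With the A+T trend removed, the median was -0.47 in 19p12, 0.32 in 19q13.4 and 0.22 in the other chromosome 19 genes, with 9 members of 19q13.4 higher, and the difference between the clusters was -0.79 in place of -0.998. Centring on chromosome 19 gave -1.57 and -0.57, so that the 19q13.4 median turned negative. It was also negative, at -0.07, without the members with shared sequence.

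**Figure D4:**
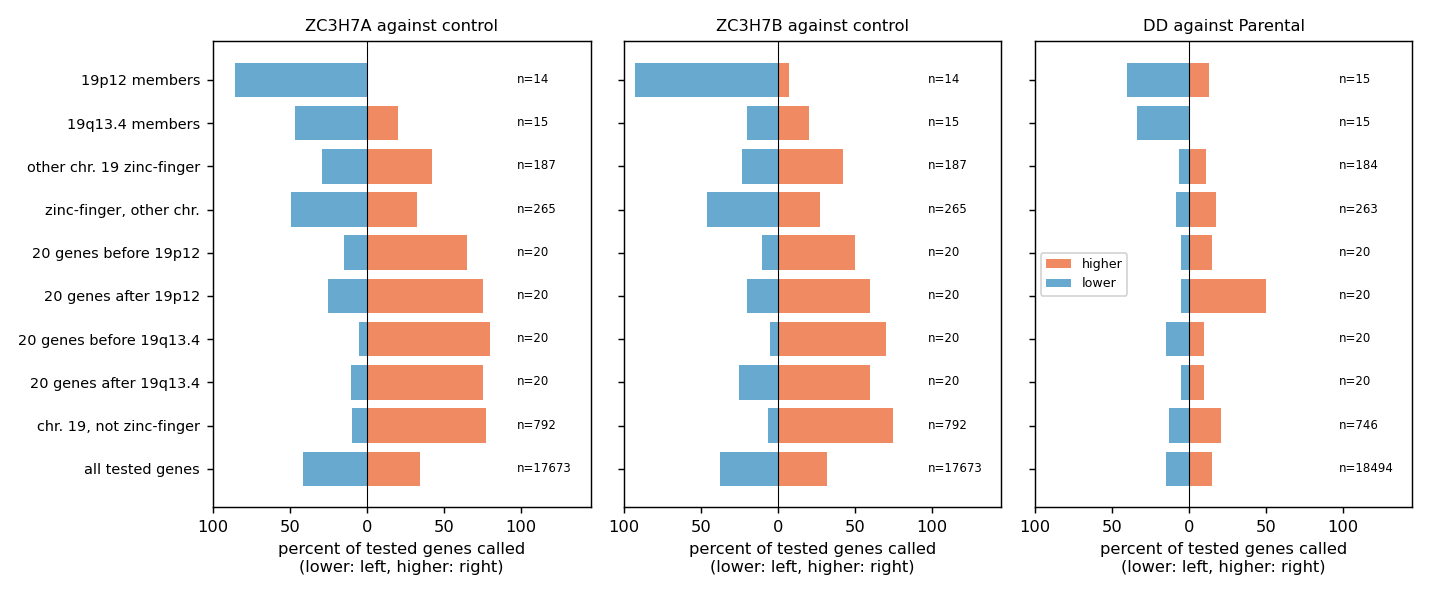
Percent of tested genes called lower (left of 0) and higher (right of 0) in each gene set for 3 comparisons, with the number of tested genes beside each bar. The 19p12 bar reaches 85.7% lower with ZC3H7A and 92.9% lower with ZC3H7B, while in these panels the flanking genes and the other chromosome 19 genes lie mostly to the right.

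ZNF43 of 19p12 was nearly absent from the ZC3H7B libraries. It stood at 275, 239.8 and 276 normalized counts in control, 214, 192 and 309 in ZC3H7A and 2.94, 1.61 and 3.12 in ZC3H7B libraries. The ZC3H7B group held 15 reads of it against 1536 in control, a level 103-fold lower (95% interval 62.1 to 184, which covers counting error only; limma adjusted p = 9.42e-10). ZC3H7A and control libraries overlapped and only the ZC3H7B libraries were low. ZNF85, the first listed member by position, was at 7.83, 9.13 and 6.24 with ZC3H7B against 40.6, 38.9 and 43.4 in control and 17.96, 16.6 and 18.4 with ZC3H7A, with a log2 fold change of -2.28 (SE 0.167, limma adjusted p = 2.49e-07) for ZC3H7B against control. The 3 groups did not overlap for ZNF85. ZNF91 was at 168, 190.1 and 215 with ZC3H7B (log2 change -1.39 with an SE of 0.136, limma adjusted p = 2.53e-06), below all controls.

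ZNF726 was the 1 member of 19p12 that rose with ZC3H7B. It stood at 97.4, 95.02 and 98.9 in control, 82.1, 79.2 and 78.2 in ZC3H7A and 154, 176 and 159 in ZC3H7B libraries (log2 change 0.74 with an SE of 0.0801, limma adjusted p = 5.84e-06). The 3 groups were separate, with ZC3H7A lowest and ZC3H7B highest. With chromosome 19 centring the log2 fold change was 0.16 and the call ended. The other 10 lower members of 19p12 had log2 fold changes from -1.30 for ZNF493 to -0.29 for ZNF430. In 19q13.4, ZNF677 was at 420.5, 415 and 475 and ZNF320 at 387, 446 and 457 with ZC3H7B (log2 change 3.62 with an SE of 0.0925, limma adjusted p = 1.86e-10 for ZNF677, and log2 change 2.77 with an SE of 0.0874, limma adjusted p = 9.47e-10 for ZNF320). Both were again above every control library. ZNF701, at 123, 131 and 139, had a log2 fold change of 0.56 (SE 0.114, limma adjusted p = 0.000912), which became -0.02 with chromosome 19 centring. ZNF83, at 489, 532 and 575, had the largest fall of the cluster (log2 change -0.84 with an SE of 0.133, limma adjusted p = 0.000124), followed by ZNF813 (log2 fold change -0.43, limma adjusted p = 0.00256) and ZNF331 (log2 fold change -0.35, limma adjusted p = 0.00073). The call of ZNF813 ended when the A+T trend was removed, at -0.08.

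The direct comparison of ZC3H7A with ZC3H7B separated few members. In 19p12, 3 of 14 were higher with ZC3H7A and 3 lower, and in 19q13.4 2 of 15 were higher and 1 lower, against 23.9% higher and 20.4% lower of all genes. The medians were -0.17 and -0.13. ZNF43 differed most, with 1215 reads in ZC3H7A and 15 in ZC3H7B libraries, a level 92.3-fold higher with ZC3H7A (95% interval 55.7 to 165). ZNF85 (log2 fold change 1.11, limma adjusted p = 0.000206) and ZNF254 (log2 fold change 0.69, limma adjusted p = 0.00808) were also higher with ZC3H7A. ZNF726 (log2 fold change -1.02, limma adjusted p = 1.09e-06), ZNF430 (log2 fold change -0.72, limma adjusted p = 2.35e-05) and ZNF429 (log2 fold change -0.47, limma adjusted p = 0.00126) were lower. With chromosome 19 centring the call of ZNF254 ended, at a log2 fold change of 0.60. In 19q13.4, ZNF677 (log2 fold change 0.33, limma adjusted p = 0.0114) and ZNF320 (log2 fold change 0.25, limma adjusted p = 0.0366) were higher and ZNF83 (log2 fold change -0.41, limma adjusted p = 0.0244) was lower with ZC3H7A, and all 3 calls ended with chromosome 19 centring, at 0.24, 0.16 and -0.50. That of ZNF677 also ended without ZC3H7B replicate 2, at 0.30. That of ZNF320 ended without ZC3H7A replicate 3, ZC3H7B replicate 1 or ZC3H7B replicate 2, at 0.17, 0.17 and 0.28, and that of ZNF83 without ZC3H7A replicate 1 or 2 or ZC3H7B replicate 2 or 3, at -0.32, -0.30, -0.41 and -0.35. Without ZC3H7A replicate 3, 8 members of 19p12 and 9 of 19q13.4 were lower with ZC3H7A, so these counts rest on that library. Without ZC3H7B replicate 1 they were 5 and 4. Without ZC3H7A replicate 1 or 2, or ZC3H7B replicate 2 or 3, ZNF83 was no longer called and 19q13.4 had no lower member.

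In the libraries labelled DD, the median member of either cluster differed little from Parental, but several members were far lower. The summed 19p12 level was 4259, 3466 and 3285 in Parental and 2831, 2989.9 and 3290.2 in DD, and the groups overlapped narrowly, with DD replicate 3 just above Parental replicate 3. The 19q13.4 sum was 5022, 4216 and 4213 in Parental and 3503, 3566 and 3779 in DD, without overlap. Of 15 tested 19p12 members 6 were lower and 2 higher (limma adjusted p under 0.05), and of 15 tested 19q13.4 members 5 were lower and 0 higher. The latter count was also 0 at an unadjusted p under 0.05 and with edgeR and DESeq2. Of all 18494 genes tested, 14.8% were lower and 14.7% higher. Medians were -0.13 and -0.04, against 0.01 for all genes and 0.09 for 746 chromosome 19 genes that are not zinc-finger genes, of which 154 were higher and 98 lower. ZNF85, ZNF43 and ZNF257 passed the filter only through the Parental libraries and so had to be lower in DD. Without them 12 members of 19p12 were tested, 3 were lower and 2 higher, and the median was -0.005. With any Parental library left out, ZNF85, ZNF43 and ZNF257 no longer passed the filter. The lower 19p12 counts then compare with 3 in place of 6, and the median with -0.005. Leaving out Parental replicate 1 gave 3 lower and 4 higher 19p12 members and medians of 0.04 and 0.01. Leaving out Parental replicate 2 also gave 3 lower, and leaving out DD replicate 2 or 3 left 0 or 1 higher in 19p12, as described for ZNF430 and ZNF431. Without Parental replicate 3, 19p12 held 4 lower and 2 higher members and 19q13.4 6 lower.

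The 3 members of 19p12 that passed the filter through Parental alone are given by their values, with no test. Their intervals cover counting error only and cannot serve as a test, since the filter took these genes because they were high in Parental. ZNF43 stood at 239.8, 209.5 and 229 in Parental and 1.89, 2.37 and 6.32 in DD, or 298 against 5 reads, a level 64.6-fold lower (95% interval 27.4 to 200.3). ZNF85 was at 75.5, 51.8 and 76.2 in Parental and 0, 0 and 2.11 in DD, or 90 against 1 read, a level 97.5-fold lower (95% interval 17.1 to 3894). No DD library came near a Parental library for either gene. ZNF257, a low member, was at 17.8, 24.7 and 13.1 in Parental and had no read in DD, which is at least 8.67-fold lower when DD is set to 3 reads over its 3 libraries. ZNF726 was at 219.8, 205 and 181 in Parental and 15.1, 18.95 and 16.9 in DD, a level 12.0-fold lower by reads (95% interval 7.87 to 19.01; limma adjusted p = 7.22e-07). These 4 genes were low or absent in all 3 DD libraries. ZNF91 was at 299.7, 232 and 222 in Parental and 117, 54.5 and 114 in DD (log2 change -1.46 with an SE of 0.262, limma adjusted p = 0.0015), and ZNF254 fell by less (log2 fold change -0.56, limma adjusted p = 0.00837).

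ZNF430 and ZNF431, neighbours in 19p12, rose in DD. ZNF430 was at 199.8, 185 and 192 in Parental and 233, 355 and 303 in DD (log2 change 0.61 with an SE of 0.157, limma adjusted p = 0.0123), and ZNF431 at 337, 303 and 288 in Parental and 377, 441 and 457 in DD (log2 change 0.45 with an SE of 0.118, limma adjusted p = 0.0127). The groups did not overlap for either gene, but both calls ended without DD replicate 2, at log2 fold changes of 0.47 and 0.43. That of ZNF431 also ended without DD replicate 3, at 0.40, and with chromosome 19 centring, at 0.39. In 19q13.4, ZNF28 fell most, from 284, 227 and 207 in Parental to 43.6, 61.6 and 80.04 in DD (log2 change -1.97 with an SE of 0.225, limma adjusted p = 6.47e-05). ZNF677 was at 455, 417 and 392 in Parental and 184, 194 and 213 in DD (log2 change -1.09 with an SE of 0.120, limma adjusted p = 4.61e-05), and ZNF808 at 298, 205 and 203 in Parental and 114, 123 and 107 in DD (log2 change -1.01 with an SE of 0.175, limma adjusted p = 0.0012). All 3 genes were lower in every DD library than in any Parental library. ZNF83 (log2 fold change -0.90, limma adjusted p = 0.00267) and ZNF331 (log2 fold change -0.61, limma adjusted p = 0.00137) were lower as well.

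**Figure D5:**
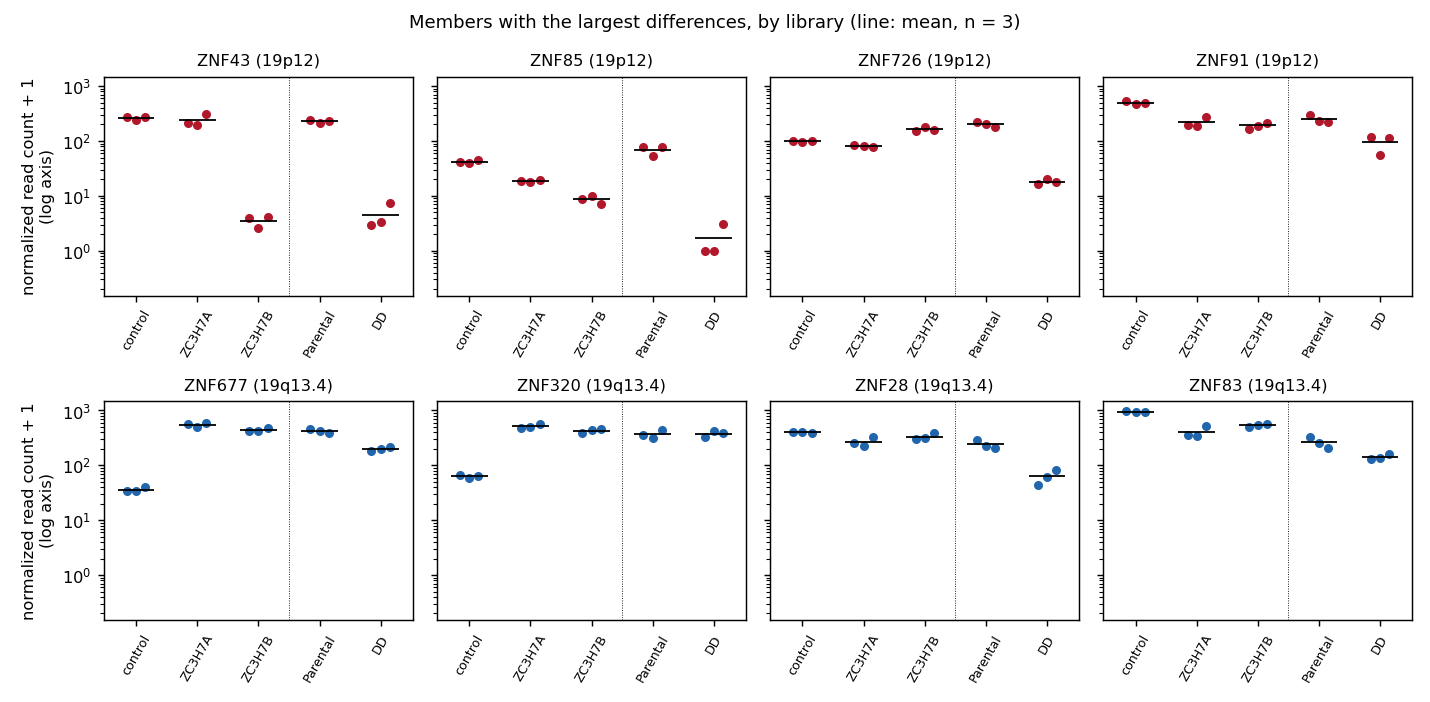
Normalized read count plus 1 (log axis) of 8 members in each library of the 5 groups, with a line at the group mean (n = 3) and a dotted line between the experiments. ZNF43 is near the bottom in ZC3H7B and DD libraries and ZNF85 in DD libraries. ZNF726 is lowest in DD libraries, at counts of 15.1 to 18.95, and ZNF677 and ZNF320 are lowest in the control libraries.

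Across the 5 groups, the members with the largest differences followed no common order. ZNF677 and ZNF320 were lowest in control cells, and Parental libraries had 455, 417 and 392 normalized counts of ZNF677 and 351, 313 and 447 of ZNF320. ZNF43 was low in ZC3H7B and DD cells and had at least 192 normalized counts in every library of the other 3 groups. ZNF726 was highest in Parental cells and lowest in DD. ZNF468, ZNF611, ZNF816 and ZNF845 of 19q13.4 passed limma's test in no comparison. Other settings called them in some, such as ZNF468 and ZNF816, higher with ZC3H7B by edgeR at log2 fold changes of 0.31 and 0.30 (adjusted p = 0.0153 and 0.0277) and by DESeq2, TMM or median-of-ratios scaling, and ZNF845, lower with ZC3H7A than with ZC3H7B by DESeq2 (-0.34, adjusted p = 0.0305). Without ZC3H7A replicate 3, limma called ZNF845 lower with ZC3H7A than in control (log2 fold change -0.36, limma adjusted p = 0.00681). It then also called ZNF845 (-0.51, limma adjusted p = 0.000977) and ZNF468 (-0.23, limma adjusted p = 0.0406) lower with ZC3H7A than with ZC3H7B. Under chromosome 19 centring all 4 genes were called lower with ZC3H7A. With ZC3H7B that setting called ZNF611 lower (-0.573), while ZNF468 (-0.332), ZNF816 (-0.335) and ZNF845 (-0.431) were negative but not called. With the A+T trend removed, ZNF468 (0.492), ZNF611 (0.317) and ZNF816 (0.489) were called higher with ZC3H7A, and all 4 genes with ZC3H7B. Their group means lay between 102 ± 9.89 for ZNF816 and 459.8 ± 1.94 for ZNF611, both in DD (SD, n = 3), and their log2 differences from control or Parental between -0.19 and 0.25.

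Among members too low to test, ZNF676 of 19p12 stood at 1.38, 0 and 0.529 in control and 10.3, 4.28 and 8.88 with ZC3H7A, from 4 and 39 reads, a level 11.1-fold higher (95% interval 3.99 to 42.6, counting error only). All 3 ZC3H7A libraries were above all control libraries. ZNF257 had 46 control reads, 64 reads in ZC3H7A and 16 in ZC3H7B libraries, a level 2.89-fold lower for ZC3H7B than for control (95% interval 1.60 to 5.46). For ZNF208, ZNF600 and ZNF665 the intervals of the read ratios against control included 1. ZNF738, ZNF98, ZNF730, ZNF415 and ZNF347 had 7 reads or fewer in every group, and differences between groups were mostly not detectable at this depth.

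The corepressor genes through which KRAB zinc-finger proteins act were called at shares not far from those of all genes with ZC3H7A. Of 30 listed genes, all tested, 40% were higher and 43.3% lower with ZC3H7A (12 and 13 genes, median log2 fold change -0.07), against 34.7% and 41.2% of all genes. With ZC3H7B 46.7% were higher and 43.3% lower (14 and 13 genes, median 0.01), against 32% and 37.6%. In DD 23.3% were higher and 3.33% lower (7 genes and 1 gene, median 0.15), against 14.7% and 14.8%. TRIM28, the scaffold itself and a chromosome 19 gene, stood at 16991, 17626 and 17574 in control, 42355, 39098 and 34735 in ZC3H7A and 37183, 36457 and 35060.3 in ZC3H7B libraries. Both overexpression groups lay above all controls (log2 change 1.15 with an SE of 0.0592, limma adjusted p = 1.01e-08 with ZC3H7A, and log2 change 1.06 with an SE of 0.0592, limma adjusted p = 3.37e-08 with ZC3H7B). In DD it was at 24969.5, 24661 and 22732 against 18167, 20568 and 24360.4 in Parental, with overlap (log2 change 0.21 with an SE of 0.0960, limma adjusted p = 0.128), and it was called higher without Parental replicate 3, at 0.32, and with the A+T trend removed, at 0.21. CBX5, which encodes heterochromatin protein 1 alpha, was at 15195, 14852 and 14816 in control, 7069.7, 7179.5 and 7701 in ZC3H7A and 6955, 7221 and 7149.5 in ZC3H7B libraries (log2 fold change -1.03, limma adjusted p = 1.6e-09 and log2 fold change -1.07, limma adjusted p = 2.84e-09 respectively). DNMT1, the maintenance DNA methyltransferase, was higher in both (log2 fold change 0.70, limma adjusted p = 4.15e-08 and log2 fold change 0.85, limma adjusted p = 2.02e-08), with 0.03 for ZC3H7A under chromosome 19 centring. MORC2, an ATPase of the HUSH silencing pathway, was higher with ZC3H7A (log2 fold change 0.80, limma adjusted p = 5.96e-08).

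UHRF1, which recruits DNMT1 to newly copied DNA, differed between the 2 overexpression groups. It stood at 2576, 2519 and 2483 in control, 2416, 2334 and 2190.5 in ZC3H7A and 4958, 4983 and 5003 in ZC3H7B libraries, where it rose (log2 change 0.98 with an SE of 0.0431, limma adjusted p = 6.84e-09). ZC3H7A and ZC3H7B libraries did not overlap (log2 fold change -1.11, limma adjusted p = 4.04e-09). Between the 2 proteins, CHD3, a NuRD subunit, was higher with ZC3H7A (log2 fold change 0.41, limma adjusted p = 1.62e-05), and ATF7IP, the partner of SETDB1, and MPHOSPH8, the chromodomain subunit of HUSH, were lower (log2 fold change -0.31, limma adjusted p = 0.00175 and log2 fold change -0.32, limma adjusted p = 0.00317). TRIM28 was not called between them (log2 fold change 0.09, limma adjusted p = 0.232), except without ZC3H7A replicate 3, at 0.17. In DD the genes with the lowest adjusted p included PPHLN1, another HUSH subunit (log2 fold change 0.43, limma adjusted p = 0.0011), DAXX, a histone H3.3 chaperone (log2 fold change 0.27, limma adjusted p = 0.0073), and TRIM24, a relative of TRIM28 (log2 fold change 0.28, limma adjusted p = 0.00966), all higher. With chromosome 19 centring the calls of DAXX and TRIM24 ended, at log2 fold changes of 0.20 and 0.21. Without DD replicate 3 that of TRIM24 also ended, at 0.26. SETDB1 RNA was at 2245, 2322 and 2693 in Parental and 2700.3, 2751 and 2509 in DD, and the groups overlapped. In the other experiment it was at 1837, 1815 and 1833 in control, 2248, 2311 and 2065 in ZC3H7A and 2282, 2315 and 2261 in ZC3H7B libraries. Both overexpression groups lay above all controls. The part of corepressor levels in the values of the ZNF members was not tested.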

How the data were processed

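RNA-seq libraries of 15 samples in 5 groups were used. The deposited table holds normalized read counts, a signal that the authors made by dividing counts by a factor per library. HTSeq, STAR 2.7.10b and DESeq2 are named with hg19 in the submitters' processing notes; the annotation, strandedness and settings are not given in the sources used here. Whole reads were recovered: 100% of values lay within 0.01 reads of a whole number.

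Values were tested as log2(value + 1), where 1 is the pseudocount, for genes with at least 10 in at least 3 libraries of a fit. Limma 3.58.1 (R 4.3.3) was fitted to 9 overexpression and to 6 depletion libraries, with a mean-variance trend, and a two-sided Benjamini-Hochberg adjusted p under 0.05 over all genes tested was called. EdgeR 4.0.16 and DESeq2 1.42.0 were run on recovered reads as alternatives, beside other pseudocounts, filters, scalings, a replicate block, removal of members with shared sequence, and leaving out each replicate. The fits were tested on simulated data. Groups with 30 or fewer reads were compared by exact binomial 95% intervals, which cover counting error only.

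Gene order, exon lengths and coding sequences came from GENCODE 29 on GRCh38, matched by name (34273 current symbols, 1359 older, 20137 unmatched). Since the builds differ, it gave no coordinates, and the promoter windows are placed on RefSeq's own build. The genes named are up to 3 called members with the largest rise and fall per cluster and comparison, members never called or tested, and up to 4 corepressor genes with the lowest adjusted p. A few genes of the fixed lists are not reported here. The members and lists were chosen with earlier results of these data known.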

Additional observations from a re-analysis of the deposited data

How the results depend on the processing

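Of the alternatives that did not leave out a library, the counts and medians of the clusters moved or turned as follows. With ZC3H7A against control, no filter on low values gave 1 higher 19p12 member and a median of -0.66. Chromosome 19 centring gave a 19p12 median of -1.72 and, in 19q13.4, 12 lower and -0.87. Removing the A+T trend gave 2 higher and -0.52 in 19p12, and 7 higher, 3 lower and 0.19 in 19q13.4. With ZC3H7B against control, no filter gave medians of -0.75 and 0.16. In 19q13.4, TMM, median-of-ratios scaling, edgeR and DESeq2 each gave 5 higher. Centring gave 0 higher and -1.57 in 19p12 and 8 lower and -0.57 in 19q13.4. The A+T alternative gave 2 higher and -0.47 in 19p12 and 9 higher and 0.32 in 19q13.4. Without shared-sequence members the 19q13.4 median was -0.071. With ZC3H7A against ZC3H7B, no filter gave 5 higher 19p12 members, a median of 0.13 and 1 higher 19q13.4 member. Lower 19q13.4 members numbered 3 with TMM, 2 with median-of-ratios scaling and with edgeR, 4 with DESeq2 and with the A+T alternative, and 0 with centring, where higher ones were 0 too. The A+T alternative gave 6 higher and 7 lower in 19p12, and 1 member was higher in 19q13.4 without shared-sequence members. In DD, centring gave 1 higher 19p12 member.

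Centring also moved the share of calls that were higher over all genes from 45.7% to 7.35% with ZC3H7A, 45.9% to 5.73% with ZC3H7B, 54.0% to 36.6% between them and 49.9% to 35.5% in DD. It turned ZNF701 to -0.34 and -0.024 with ZC3H7A and ZC3H7B, ZC3H7B with ZC3H7A to -0.25, ZC3H7A in DD to -0.018, and TRIM28 between the proteins to 0.00 (-0.03 with the A+T trend removed).

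Leaving out each replicate in turn moved the medians of 19p12 and 19q13.4 from -1.20 to -0.96 and -0.36 to -0.05 with ZC3H7A, and from -1.11 to -0.86 and -0.036 to 0.058 with ZC3H7B. In DD they moved from -0.239 to 0.041 and -0.144 to 0.006. With ZC3H7B, 19q13.4 had 3 to 5 higher and 3 to 5 lower. Between the proteins, 19p12 had 3 to 8 lower, and 19q13.4 0 to 2 higher and 0 to 9 lower. In DD, 19p12 had 0 to 4 higher and 3 to 6 lower. Leaving out a Parental library also removed ZNF85, ZNF43 and ZNF257 through the filter, which bears on this lower count and on the 19p12 median.

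Against control, correlations of deviations ran from -0.07 to 0.04 between same-numbered libraries and from -0.05 to 0.06 between others. In depletion they ran from -0.05 to -0.02 and from -0.05 to 0.07, so these samples showed no pairing by replicate number. Between ZC3H7A and ZC3H7B they were 0.13, 0.006 and 0.30 against -0.26 to 0.17. These values do not settle whether the numbers pair those groups. With the replicate number as a block, 19q13.4 had 5 higher and 5 lower with ZC3H7B, and between the proteins 7 members of 19p12 and 4 of 19q13.4 were lower. All other cluster counts stayed within 1.5 times.

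Members under 10 normalized counts limit what these libraries show, most of all in the shallower depletion experiment.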

Other observations

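Zinc-finger genes that lie within the clusters but are not among the 39 members were few. The table held 6 of them in 19p12 and 3 in 19q13.4. With ZC3H7A, 1 of 2 tested in 19p12 was higher and 1 lower, and the 1 tested in 19q13.4 was higher. With ZC3H7B, 1 of 2 in 19p12 was lower and the 1 in 19q13.4 was higher. In DD, 2 were tested in each cluster and 1 of 19q13.4 was lower.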
